A study of Mus musculus with 6 samples.

Results

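The enzymes of lower glycolysis carry sugar from the cleavage of fructose bisphosphate down to pyruvate and lactate. In primary mouse hepatocytes their transcripts were compared after transfection with control siRNA (siControl) or siRNA against retinol saturase (siRetSat). The 9 genes were taken from a list, namely Aldoa, Aldoc, Tpi1, Pgk1, Pgam1, Eno3, Pklr, Pkm and Ldha, each through the brightest probe set that the platform annotation assigns to that symbol alone. All 9 were measured, among 19938 genes in all. Hepatocytes of a male wild-type C57BL/6J mouse, aged 10 weeks by the series' design text, were plated in culture medium holding 25 mM glucose, and 1 nmol of siRNA was given overnight with a lipid reagent. The medium was renewed in the morning, cells were harvested 48 h later, and 100 ng of total RNA was labelled for Affymetrix Mouse Gene 1.0 ST arrays. Each group held 3 independent transfections, numbered 1 to 3. All samples received siRNA, and the target of the control siRNA is not given in the sources used here. As the design text names cells of a single mouse, p-values measure the spread between transfections and not between animals.

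Glycolysis below the aldolase step turns each triose phosphate into pyruvate and yields the ATP and NADH of the pathway. In liver the last step is run mainly by the liver-type pyruvate kinase encoded by Pklr, whose gene is induced by glucose through the carbohydrate response element binding protein (ChREBP). Most of the other enzymes come as tissue isoforms from separate genes, so that aldolase A, enolase beta and pyruvate kinase M are better known from muscle and dividing cells than from hepatocytes. The study profiled these cells to learn what RetSat does in them.

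The sequence before the start sites of Pklr holds a match to the paired element through which ChREBP acts, and is shown with those of Ldha and Aldoa for comparison. RefSeq, on build GRCm38.p6, gives Pklr 2 starts. From textbook knowledge the upstream one belongs to the transcript of red blood cells and the downstream one to that of liver. The 250 bases before each start are written in the direction of transcription, with capitals for matches on either strand to CACGTG or ACGTG or GCGTG, and to a paired motif in which CACGNG is followed after 5 bases by CNCGTG, where N is any base. Every CACGTG also holds ACGTG.
Pklr, upstream start, chr3:89135892-89136141, plus strand: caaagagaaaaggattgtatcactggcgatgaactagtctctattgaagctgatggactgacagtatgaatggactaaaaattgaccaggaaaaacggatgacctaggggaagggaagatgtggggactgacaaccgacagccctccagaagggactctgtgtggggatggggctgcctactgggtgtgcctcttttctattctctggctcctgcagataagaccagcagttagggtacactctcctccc
Pklr, downstream start, chr3:89136373-89136622, plus strand: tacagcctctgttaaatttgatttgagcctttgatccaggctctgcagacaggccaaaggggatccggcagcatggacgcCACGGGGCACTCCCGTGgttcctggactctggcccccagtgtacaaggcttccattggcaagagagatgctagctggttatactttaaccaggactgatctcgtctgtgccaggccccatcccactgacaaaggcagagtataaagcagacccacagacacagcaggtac
Ldha, upstream start, chr7:46845554-46845803, plus strand: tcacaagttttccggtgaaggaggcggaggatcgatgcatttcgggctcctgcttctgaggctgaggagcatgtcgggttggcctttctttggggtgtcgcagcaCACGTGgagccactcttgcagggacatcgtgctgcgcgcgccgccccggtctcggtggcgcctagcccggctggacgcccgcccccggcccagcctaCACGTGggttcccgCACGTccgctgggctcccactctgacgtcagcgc
Aldoa, the second of 3 starts, chr7:126799255-126799504, minus strand: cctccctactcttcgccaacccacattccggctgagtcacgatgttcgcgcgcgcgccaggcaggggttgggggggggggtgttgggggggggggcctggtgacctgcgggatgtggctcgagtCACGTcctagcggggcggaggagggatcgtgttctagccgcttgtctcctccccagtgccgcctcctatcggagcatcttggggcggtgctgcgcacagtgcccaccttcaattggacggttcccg
The stretch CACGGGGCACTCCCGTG lies 170 to 154 bases before the downstream start of Pklr, at chr3:89136453-89136469. It was the only match to the paired motif in the 15 windows of the 9 genes, and 13 of 32851 windows of this length before RefSeq starts of all genes held one, or 0.0396%. Ldha was the only member with CACGTG, with 2 matches, where 6.02% of all windows held at least 1. ACGTG and GCGTG are both forms of the core of the element bound by hypoxia-inducible factors. ACGTG occurred before 5 of the 9 genes, and in 6 of the 15 windows against 16.6% of all windows. Of these 6, 2 are overlapping windows of Aldoa that hold the same match. GCGTG occurred before 4 of the 9 genes and in 5 of the 15 windows, against 28.2% of all. These matches are letters in a sequence and were not measured as binding sites. Pklr was known beforehand as a target of ChREBP, so its match to the paired motif is a description and not a test. Whether the motif is independent of this site was not checked.

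The values are log2 intensities on the authors' normalized scale, and a difference of 2 such values is a log2 fold change. RetSat itself was depleted. Retsat went from 6.95 ± 0.13 (SD, n = 3) in siControl to 4.75 ± 0.12 (SD, n = 3) in siRetSat, which left 21.8% of the control signal (log2 fold change -2.20, limma, adjusted p = 0.000112). Array medians lay between 4.29 and 4.50. The arrays numbered 1 of both groups stood apart from the other 4, and the leading principal component of the deviations from group means held 61.5% of their variance. The scores on this component were -19.0, 3.66 and 15.4 for siControl 1, 2 and 3, and -23.6, 7.26 and 16.4 for siRetSat 1, 2 and 3. They thus ran in the same order of numbers in both groups. Over all genes 710 passed an adjusted p of 0.05, or 3.56%, of which 330 fell and 380 rose. A gene is called dim here when its mean lies under 4.33, the 40th percentile of all genes, and none of the 9 members was dim. The number of arrays limits the precision.

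Transcripts of lower glycolysis lay slightly lower in siRetSat than in siControl for 8 of the 9 genes, by a log2 of 0.13 to 0.38, and Eno3 lay higher. None of the 9 passed an adjusted p of 0.05 from limma in either direction, where 1.66% of all genes passed as lower and 1.91% as higher. That fit did not pair the arrays by replicate number. Its smallest adjusted p was that of Pklr at 0.0793 and its largest that of Eno3 at 0.735. Some other settings, given at the end, called members. The median log2 fold change of the 9 was -0.23, against 0.00 over all genes, of which 48.3% had a negative value. Before adjustment Aldoa, Pgam1 and Pklr, 3 of 9, had a p under 0.05 and were lower, where 7.52% of all genes were. The study's cutoffs were a p under 0.05, there from another test than limma's, and a signal at least 25% higher in one group than in the other. By these cutoffs with limma's p, Aldoa and Pklr were lower, 2 of 9, and no member was higher, where 4.58% of all genes were lower, 4.47% higher and 9.05% either. Without the array siControl 2, Aldoa alone met them, and without both arrays numbered 2 none did. In Aldoa, Pklr and Ldha, 3 of 9, every siRetSat array lay below every siControl array, which held for 10.1% of all genes. The reverse held for no member and for 9.33% of all genes.

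**Figure D1:**
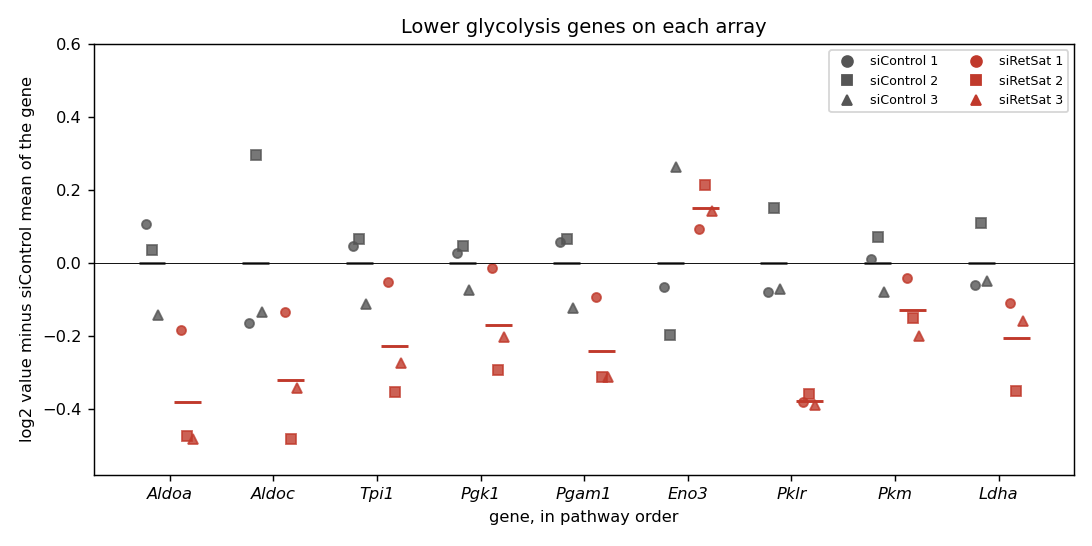
The y axis gives the distance of each array from the gene's siControl mean in log2 units, with 1 symbol per array and the 9 genes in pathway order on the x axis. Grey is siControl, red is siRetSat, the shape gives the replicate number and horizontal bars are group means (n = 3). The siRetSat means lie below 0 for 8 genes, down to -0.38 for Aldoa, and at 0.15 for Eno3.

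Aldolase cleaves fructose bisphosphate into triose phosphates. Aldoa, the ubiquitous and muscle form (probe set 10568050), had log2 values of 11.27, 11.20 and 11.02 in siControl and of 10.98, 10.69 and 10.68 in siRetSat. The groups did not overlap, but siRetSat 1 came within 0.04 of siControl 3. The siRetSat signal was 76.8% of control (95% interval 63.8 to 92.5), a log2 fold change of -0.38 (limma with its standard error, SE, of 0.116, adjusted p = 0.152). Aldoc, the form best known from brain (probe set 10379153), had values of 7.75, 8.21 and 7.78 in siControl and of 7.78, 7.43 and 7.57 in siRetSat. The groups overlapped, since siRetSat 1 equalled siControl 3, and siControl 2 stood above the other 5 arrays. The log2 fold change of Aldoc was -0.32 (limma, SE 0.148, adjusted p = 0.385), with an interval from -0.66 to 0.02, and it was -0.17 without siControl 2.

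Triosephosphate isomerase interconverts the products of aldolase, and phosphoglycerate kinase then makes the first ATP of the lower pathway. Tpi1 (probe set 10547830) had log2 values of 11.95, 11.97 and 11.79 in siControl and of 11.85, 11.55 and 11.63 in siRetSat. Here siRetSat 2 and 3 lay below all siControl arrays, whereas siRetSat 1 lay above siControl 3. Its log2 fold change was -0.23 (limma, SE 0.108, adjusted p = 0.401), or 85.5% of control, with a log2 interval from -0.47 to 0.02. Pgk1 (probe set 10399379) had values of 12.31, 12.33 and 12.21 in siControl and of 12.27, 11.99 and 12.08 in siRetSat, with the same overlap of siRetSat 1 and siControl 3. The log2 fold change of Pgk1 was -0.17 (limma, SE 0.10, adjusted p = 0.543), and it was -0.11 without siRetSat 2. Of the other 2 probe sets that name Pgk1, 1 had identical values on every array and the other had a difference of -0.17 too. The annotation thus gives several places to transcripts of Pgk1 and Pgam1, and signal from near-identical gene copies cannot be told apart.

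Phosphoglycerate mutase shifts the phosphate on phosphoglycerate, and enolase removes water to give phosphoenolpyruvate. Pgam1 (probe set 10463168) had log2 values of 10.47, 10.48 and 10.29 in siControl and of 10.32, 10.10 and 10.10 in siRetSat. Again siRetSat 1 alone reached into the siControl range. The log2 fold change of Pgam1 was -0.24 (limma, SE 0.103, adjusted p = 0.335), with an interval from -0.48 to -0.0038. Of the other 2 probe sets of the gene, 1 had identical values on every array and the other gave -0.24 as well. Eno3, the beta enolase of muscle (probe set 10377938), had values of 5.10, 4.97 and 5.43 in siControl and of 5.26, 5.38 and 5.31 in siRetSat. The siRetSat values of Eno3 lay inside the siControl range, so that the groups could not be separated. Its log2 fold change was 0.15 (limma, SE 0.126, adjusted p = 0.735), with an interval from -0.14 to 0.44, and it was 0.05 without siControl 2 and 0.28 without siControl 3. Of 6 skeletal muscle markers, Acta1 fell at -1.78 (limma, adjusted p = 0.000214) and the others, Ckm, Myh4, Tnnt3, Pygm and Mb, did not pass, with Myh4 and Pygm dim. The median log2 fold change of the 6 was -0.025. Their summed log2 level was 10.07 to 10.33 in siControl and 8.65 to 8.78 in siRetSat. Acta1, with means of 10.04 and 8.26, made up most of this sum. The part of these markers in the values of Eno3 and Aldoa was not tested.

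Pyruvate kinase transfers phosphate from phosphoenolpyruvate to ADP and releases pyruvate. Pklr (probe set 10493382) had log2 values of 11.12, 11.35 and 11.13 in siControl and of 10.82, 10.84 and 10.81 in siRetSat. The siRetSat arrays of Pklr lay within 0.03 of each other and at least 0.28 below every siControl array. The siRetSat signal was 77.0% of control (95% interval 66.3 to 89.5), a log2 fold change of -0.38 (limma, SE 0.0941, adjusted p = 0.0793). It lay between -0.42 and -0.30 when single arrays were left out, with the smallest size without siControl 2. The 2 starts of Pklr shown above were not measured apart, because 1 probe set stands for the gene. Of 6 erythroid markers 2 were measured, Slc4a1 and the dim Alas2, and neither passed in limma or had an unadjusted p under 0.05. Their summed log2 level was 5.12 to 5.54 in siControl and 5.08 to 5.45 in siRetSat.

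Pkm encodes the muscle-type pyruvate kinases, which differ by splicing and were not measured apart. Its brightest probe set (10528480) had log2 values of 10.04, 10.10 and 9.95 in siControl and of 9.99, 9.88 and 9.83 in siRetSat. The groups overlapped through siRetSat 1. The log2 fold change was -0.13 (limma, SE 0.0899, adjusted p = 0.645), or 91.4% of control with an interval of 79.2 to 105%. The dimmer of its 2 probe sets (10585932) gave a difference of -0.05. Ptbp1, a splicing factor that favours one form of Pkm, was at -0.30 and did not pass (limma, adjusted p = 0.149).

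Lactate dehydrogenase A reduces pyruvate to lactate. Ldha (probe set 10553301) had log2 values of 12.09, 12.26 and 12.10 in siControl and of 12.04, 11.80 and 11.99 in siRetSat. The groups did not overlap, with a gap of 0.05 between siControl 1 and siRetSat 1. Its log2 fold change was -0.21 (limma, SE 0.101, adjusted p = 0.420), or 86.7% of control with an interval of 73.8 to 102%, and it was -0.135 without siRetSat 2. Ldhb, the heart-type subunit, had values of 5.35, 5.04 and 5.22 in siControl and of 5.68, 5.86 and 5.98 in siRetSat. Ldhb rose by 0.64 (limma, SE 0.117, adjusted p = 0.0255), in all 3 siRetSat arrays, but it did not pass without siControl 2, siControl 3, siRetSat 2 or siRetSat 3 (adjusted p up to 0.124).

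**Figure D2:**
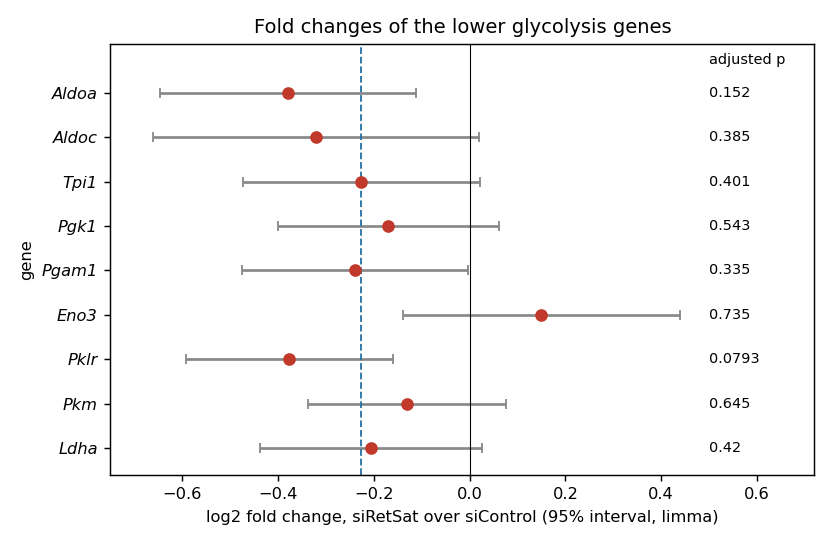
Points are log2 fold changes of siRetSat over siControl (x axis) for each gene (y axis), bars are 95% intervals from limma, and the numbers are p-values adjusted over all genes. The dashed line marks the median of the 9 genes at -0.23. The intervals of Aldoa, Pgam1 and Pklr lie below 0.

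The single arrays behind these values are described next, by a pattern that was not among the planned results. For 8 of the 9 genes, all but Eno3, siRetSat 2 and 3 lay below every siControl array. The share of all genes with this pattern was not counted, so the 8 cannot be set against a background. For 3 of the 8, Aldoa, Pklr and Ldha, siRetSat 1 did so too, which held for 10.1% of all genes. In 7 of the 8 siRetSat 1 was the highest siRetSat array, with Pklr the exception. The median deviation of the 9 genes from the siControl mean was -0.09 in siRetSat 1, -0.35 in siRetSat 2 and -0.27 in siRetSat 3. In siControl 1, 2 and 3 it was 0.01, 0.07 and -0.08.

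Whether related genes changed unequally was asked by their difference on each array, which a constant added to a whole array does not move. Only the change of this difference can be read, since probe sets differ in brightness for the same amount of RNA. Pklr minus Pkm was 1.17 ± 0.085 (SD, n = 3) in siControl, with a lowest value of 1.08, and was 0.83, 0.96 and 0.98 in siRetSat. All 3 siRetSat arrays lay below the 3 siControl arrays, with a change of -0.25 (two-sided exact permutation test, p = 0.1, adjusted p = 0.3 over 3 pairs). The smallest p that 3 against 3 arrays can give is 0.1. Pklr minus Ldha changed by -0.17 (exact permutation test, p = 0.3, adjusted p = 0.45), with siRetSat 2 at -0.96 inside the siControl range of -0.97 to -0.91. Aldoa minus Aldoc changed by -0.06 (exact permutation test, p = 0.8), where the siControl arrays ran from 2.99 to 3.52, and the change was 0.075 without siControl 1. As 0.1 lies above the threshold used for calls, this test could not have called any of the 3 pairs. Its p-values therefore do not decide whether a pair changed unequally. Pklr minus Pkm reached the smallest possible p with separate groups, whereas the groups overlapped for Pklr minus Ldha and for Aldoa minus Aldoc.

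**Figure D3:**
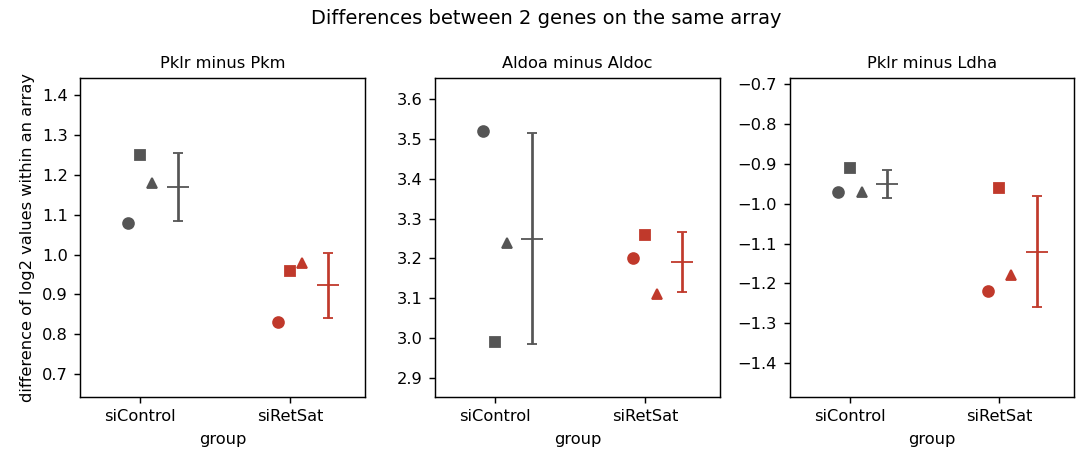
Each panel shows the difference of log2 values between 2 genes on the same array (y axis) by group (x axis), with 1 symbol per array, whose shape gives the replicate number as circle, square and triangle for 1, 2 and 3. The bars are means with 1 SD to each side (n = 3). Only Pklr minus Pkm has separate groups, with siControl from 1.08 upwards and siRetSat from 0.83 to 0.98.

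Of 18 other glycolytic genes 13 were measured, of which 1 fell by the adjusted p and the other 12 passed in neither direction, with a median log2 fold change of 0.04. The list held 6 dim genes, all between 0.07 and 0.18, and 7 that were not dim, with a median of -0.25, of which 6 were negative. The gene that fell was Pfkp, a phosphofructokinase, at -0.55 (limma, adjusted p = 0.0452), and of the 6 fits that each lacked 1 array only the one lacking siRetSat 1 called it. Hexokinase 2 (Hk2), which phosphorylates glucose, was at 7.10, 7.52 and 7.41 in siControl and at 6.68, 6.87 and 6.93 in siRetSat, a log2 fold change of -0.52 that did not pass (limma, adjusted p = 0.0786). Pfkl, the liver phosphofructokinase, was at 8.63, 8.82 and 8.46 in siControl and at 8.32, 8.12 and 8.13 in siRetSat, a difference of -0.45 that did not pass either (limma, adjusted p = 0.0902). Pfkm, the muscle form, had a value of -0.25 (limma, adjusted p = 0.174). In these 4 genes of the 13 the groups did not overlap and the unadjusted p was under 0.05. Of all genes, 10.1% were lower without overlap and 7.52% were lower at such a p. Pfkp, Hk2 and Pfkl, 3 of the 13, also met the study's fold cutoff, where 4.58% of all genes were lower by both cutoffs. Of 23 genes that handle pyruvate and lactate 22 were measured, of which 3 rose, none fell and 19 did not pass, with a median of -0.07. An unadjusted p under 0.05 was met by 9 of the 22, some lower and some higher, where 14.5% of all genes met it. Besides Ldhb, those called as risen were Gpt, which exchanges pyruvate with alanine, at 0.63 (limma, adjusted p = 0.0164), and Pcx, which carboxylates pyruvate, at 0.55 (limma, adjusted p = 0.021). Gpt did not pass without siControl 2, siControl 3 or siRetSat 2 (adjusted p up to 0.0904), and of the 6 fits only that without siRetSat 1 called Pcx (adjusted p up to 0.105 in the others). The lowest value of the list was that of Slc16a3, a lactate exporter chosen after its values were seen. It stood at 8.59, 8.59 and 8.25 in siControl and at 8.10, 7.17 and 7.54 in siRetSat, a log2 fold change of -0.87 that did not pass (limma, SE 0.219, adjusted p = 0.0811). Slc16a3 passed without siRetSat 1 (adjusted p = 0.0112). Of 13 regulators of these genes 11 were measured and none passed in either direction, with 2 at an unadjusted p under 0.05, which 14.5% of all genes had. The smallest p-values were those of Ptbp1, of Arnt, the partner of hypoxia-inducible factors, at -0.21 (limma, adjusted p = 0.314), and of Mlxip, a relative of ChREBP, at -0.21 (adjusted p = 0.349). The median of the list was -0.12. Mlxipl, the gene of ChREBP itself, was at 0.05 and did not pass (limma, adjusted p = 0.899).

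Some markers of hepatocytes and 1 of macrophages also differed between the groups. Of 9 hepatocyte markers 7 were measured, none of them dim, and 3 fell, none rose and 4 did not pass, with a median of -0.36. Those that fell were the plasma proteins Ahsg and Fgb at -0.52 and -0.42 (limma, adjusted p = 0.0196 and 0.0409) and the urea cycle enzyme Cps1 at -0.82 (limma, adjusted p = 0.0291). The summed level of the list was 14.34 to 14.48 in siControl and 14.25 to 14.29 in siRetSat on the log2 scale. Albumin (Alb) had a mean of 12.98 in siControl and of 13.05 in siRetSat and did not pass (limma, adjusted p = 0.844), nor did Apoa1 at 0.11. Of 8 macrophage markers Cd14 rose at 0.59 (limma, adjusted p = 0.0208), none fell and 7 did not pass, and Adgre1, Csf1r, Marco, Lyz2 and Vsig4 were dim. The list's median was 0.09. Their summed level was 11.23 to 11.39 in siControl and 11.67 to 11.77 in siRetSat, where Cd68, with a mean of 11.14 in siControl and of 11.54 in siRetSat, did not pass (limma, adjusted p = 0.0563). Of 8 stellate cell and fibroblast markers and 6 endothelial markers none passed in limma, with 0 and 1 at an unadjusted p under 0.05. The summed level of the stellate cell and fibroblast list was 7.62 to 7.99 in siControl and 7.68 to 8.72 in siRetSat. Col1a1 at 7.51, Col1a2 at 6.73, Col3a1 and the dim Pdgfrb were highest in siRetSat 2, whereas Dcn, Des, Lrat and Lum were not. The endothelial sum was 7.65 to 7.91 in siControl and 7.72 to 8.04 in siRetSat. Of 4 bile duct markers Sox9 rose at 0.45 (limma, adjusted p = 0.0324) and 3 did not pass, with a median of 0.08. Those 3 went both ways, with Epcam at 0.36, Krt19 at -0.20 and Krt7 at -0.21. None of Ahsg, Fgb, Cps1, Cd14 and Sox9 passed without siControl 2, siRetSat 2 or siRetSat 3. Ahsg, Fgb and Sox9 also did not without siControl 3, Cps1 and Fgb without siRetSat 1, or Cd14 and Sox9 without siControl 1, with adjusted p-values up to 0.192. The part of these markers in the values of the 9 glycolytic genes was not tested. In bulk RNA, fewer cells of a type and less RNA per cell cannot be told apart.

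The genes with the pattern most like that of Pklr were sought among the 11969 genes that were not dim. By Pearson's r over the 6 arrays they were Tom1l2 at 0.998, Mettl3 at 0.995, and Emd, Ndel1 and Slk at 0.994, 0.993 and 0.993. Their own log2 fold changes ran from -0.38 for Emd to -0.08 for Tom1l2 and none passed, the smallest adjusted p being 0.0651 for Emd. For Aldoa the nearest were Wbp1l, Vtn, Naif1, Gata4 and Pgam1, with r between 0.988 and 0.995 and log2 fold changes of -0.43 to -0.21. Of the 9 genes described here only Pgam1 was among these 10. All such values share the difference between the groups and the same 6 arrays, and are given as a description.

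**Figure D4:**
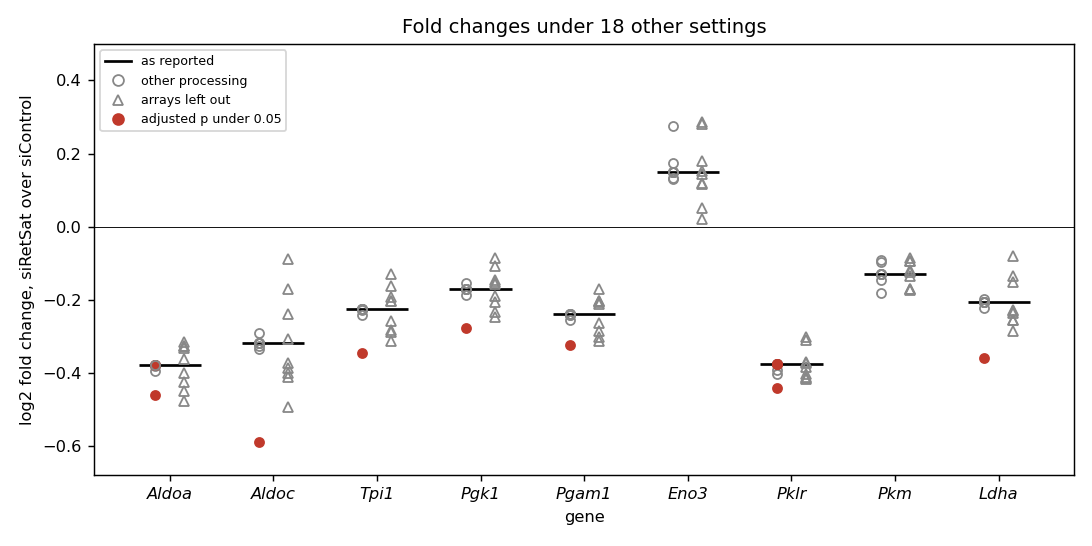
For each gene (x axis) the black bar is the log2 fold change as reported (y axis), open circles are other ways of processing, triangles are fits without 1 array or without both arrays of a number, and red marks an adjusted p under 0.05. Of the 18 settings none changed the sign of any of the 9 genes, and Pklr ranged from -0.44 to -0.30.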

How the data were processed

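Gene expression was measured in 6 samples, 3 per group, grouped by their titles. The deposited values of 35556 probe sets are log2 intensities that the authors normalized. The labels' processing notes name Partek 6.6 and RMA, a method of background correction, quantile normalization and summary over probes. Neither a filter nor the annotation's version is given there. Such values compress the changes of very bright and very dim genes.

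By GEO's platform annotation 12146 probe sets had no symbol, 1621 had several and 21789 had 1. Of the last, 21698 were matched to the current symbol in RefSeq's GRCm38.p6 table by Entrez identifier, and the brightest probe set of a gene was kept (19938 genes). No build is named for the arrays, so coordinates are given for RefSeq's promoter sequences only.

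The comparison of siRetSat with siControl used lmFit and eBayes of limma 3.58.1 under R 4.3.3 without covariates. P-values were adjusted by Benjamini-Hochberg across the 19938 genes, and 0.05 was the threshold. The fit was tested on simulated data. Gene pairs were compared by exact permutation in scipy 1.17.1. Tables and plots used Python 3.11.15, pandas 2.3.3 and matplotlib 3.10.9. The members and lists were chosen with earlier results of these data known. The text names the 9 members, Retsat, from the other lists the genes past the threshold (up to 3 for marker lists) or else the 3 with the smallest p, and the 5 genes most like Pklr and Aldoa each. Slc16a3, Hk2, Pfkl, Pfkm, Mlxipl, Alb, Apoa1, Cd68 and markers named as dim or not passing fall outside this rule and were chosen after their values were seen. The alternatives changed the test (the methods' t-test, a variance trend, array weights, a block by replicate number), the scaling (a further quantile step, centring on medians, subtraction of the 5th percentile down to a floor of 16) or the input (no dim genes, probe sets averaged per gene, arrays omitted singly or by number).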

Additional observations from a re-analysis of the deposited data

How the results depend on the processing

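Each of the 9 genes kept its sign under all 18 alternatives. None was called without any 1 array or without both arrays of a number, and the calls changed only as follows. With array weights, which ran from 0.317 for siRetSat 1 to 3.90 for siRetSat 2, 7 members were lower at an adjusted p under 0.05 (all but Eno3 and Pkm), 6 were past the study's cutoffs, the median of the members was -0.35 and 2905 genes were called in place of 710. With a variance trend 2 members were called, Aldoa (limma, adjusted p = 0.0462) and Pklr (0.0119), and 1078 genes. Without dim genes 1 was called, Pklr (0.0434), where fewer genes were tested. The cause of the other changes was not tested. The count over all genes was 445 with background subtraction, 342 with median centring and 196 with the methods' t-test, none of which called a member. Of the calls named beside the members, background subtraction ended those of Pfkp, Gpt, Pcx, Ldhb, Cps1, Fgb and Cd14 (adjusted p from 0.0522 to 0.144). Median centring ended those of Pcx, Ldhb, Ahsg, Fgb, Cd14 and Sox9 (0.0629 to 0.152), the further quantile step that of Pfkp (0.0552), and averaging of probe sets that of Ldhb (0.0581). The t-test ended all but those of Retsat and Acta1 (0.0626 to 0.191). Slc16a3 was called with median centring (0.0417), a variance trend (0.0331), the block (0.0207), array weights (0.000931) and without both arrays numbered 1 (0.0238). Array weights also called Hk2, Pfkl, Pfkm, Cd68 and Ptbp1 (0.00245 to 0.0297). The variance trend and the block each called Hk2, Pfkl and Cd68 (0.00633 to 0.0401), and the variance trend called Ptbp1 too (0.0447). Hk2 was also called with the further quantile step (0.0315), without both arrays numbered 1 (0.0256) and without siControl 1 (0.0369), Pfkm with background subtraction (0.0372) and Cd68 without dim genes (0.0303). Leaving out arrays gave 15 to 822 genes over all, the fewest where both arrays numbered 2 were omitted. It was 207 and 294 without siControl 2 and 3, 226 and 317 without siRetSat 2 and 3, and 111 where both arrays numbered 3 were omitted. It gave 0 to 3 members past the study's cutoffs and a median of the members from -0.31 to -0.09, the latter without both arrays numbered 2. Aldoa minus Aldoc ran from -0.225 to 0.075, and turned to 0.07 without both arrays numbered 1 and to 0.075 without siControl 1. Retsat stayed between -2.27 and -2.13 without 1 array or a number.

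With the replicate number as a block, 2 members were called, Aldoa (limma, adjusted p = 0.0334) and Pklr (0.0346), and 1541 genes. The correlations of same-numbered deviations from the group means were 0.547, 0.0398 and 0.541 for numbers 1, 2 and 3, so that the second did not exceed 0.1 and the numbers were not taken to pair the samples. This cannot exclude pairing, because the arrays numbered 2 had the smallest scores in size on the leading principal component. Across numbers, siControl 1 with siRetSat 3 gave -0.526 and siControl 3 with siRetSat 1 gave -0.567. siControl 1 and siControl 3 thus each correlated best with their own number. siControl 2 correlated best with siRetSat 3, at 0.114, not with its own number.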
